A study of Mus musculus with 18 samples.

Results

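Chemokine receptors are seven-transmembrane receptors that guide leukocytes along gradients of chemokines, small secreted chemoattractant proteins. Most of them couple to inhibitory G proteins, and after binding they are switched off by receptor kinases, arrestins and regulators of G protein signalling. In cells of the monocyte and macrophage lineage, Ccr2 is the receptor for the monocyte chemoattractants, Ccr1 binds Ccl3 and related inflammatory chemokines, Cx3cr1 binds the membrane-bound chemokine Cx3cl1, Cxcr4 binds the retention factor Cxcl12, Ccr7 binds the lymph node chemokines Ccl19 and Ccl21, and Ccrl2 is an atypical receptor that binds chemerin without signalling as a classical chemokine receptor. The 6 genes Ccr1, Ccr2, Ccr7, Ccrl2, Cxcr4 and Cx3cr1 were taken by their symbols from the gene tables of all libraries, out of 24485 genes listed, and all of them were found in every library.

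RNA was sequenced from bone marrow-derived macrophages (BMDMs) of 3 Il10-/- mice on the C57BL/6J background, 12-week-old males, grown with L929-conditioned medium as the source of macrophage growth factor. The 18 libraries formed 6 groups of 3. Cells received either nothing, (+)-JQ1 at 500 nM or IL-10 at 10 ng/mL for 12 hours, and LPS at 50 ng/mL or phosphate-buffered saline (PBS) for a further 4 hours, which gave the groups unstimulated, LPS, (+)-JQ1, LPS + (+)-JQ1, IL-10 and LPS + IL-10. (+)-JQ1 is a compound that occupies the acetyl-lysine pocket of BET bromodomain proteins and so releases them from chromatin, and LPS is a component of the outer membrane of Gram-negative bacteria that is sensed through Toll-like receptor 4. All groups shared the loss of Il10, so the comparisons concern macrophages that make no IL-10 of their own, and no wild-type library was analysed here. The labels call the cells without (+)-JQ1 or IL-10 untreated, whereas the study's methods name a vehicle control before LPS. The same number was taken to mark the same mouse in every group, because the labels describe biologically matched cultures, and n is 3 throughout.

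The libraries held between 6781952 and 28289498 expected counts, so 3 counts, taken as the smallest level that could be shown, corresponded to 0.106 to 0.442 CPM. Levels are given as normalised counts, that is counts divided by the median-of-ratios size factor of the library, for comparisons of 1 gene between libraries, and as TPM, which is scaled for length, for comparisons between genes. Il10 itself still gave 27.1 to 177 normalised counts in the libraries. The sources used here do not say which part of the gene was deleted, so its count did not check the genotype. The summed counts of 8 macrophage markers lay between 205147 and 268738 in all libraries, those of 5 T and NK cell markers at or under 4.69 and those of 4 B cell markers at or under 9.90. LPS moved the balance of all genes: 4728 were higher and 4928 lower with LPS against unstimulated cells, but 2223 were higher and 8858 lower when libraries were scaled to their total counts, and the median gene then shifted from -0.07 to -1.02 on the log2 scale. For LPS + (+)-JQ1 against LPS the split was 3491 higher and 4718 lower, against 5524 and 2994 with total-count scaling, and for the interaction of LPS with (+)-JQ1 it was 2250 and 3029, against 5964 and 1023 with total-count scaling and 2888 and 2390 with TMM factors.

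Without LPS, Cxcr4 was the main transcript of the 6 receptors. Its level in unstimulated BMDMs was 362 ± 25.6 TPM (SD, n = 3), or 78.4% ± 3.60 of the summed TPM of the 6 genes. Cx3cr1 followed with 67.5 ± 8.80 TPM, and Ccr2, Ccr1 and Ccrl2 lay close together at 11.9 ± 1.28, 10.7 ± 3.91 and 8.88 ± 0.628 TPM. Ccr7 was barely present at 0.477 ± 0.287 TPM. With LPS the composition turned over. Ccrl2 reached 380 ± 44.7 TPM and made up 95.5% ± 0.498 of the sum, whereas Cxcr4 fell to 1.04 ± 0.222 TPM and to 0.265% ± 0.0654. The summed TPM of the 6 genes was 461 ± 11.8 in unstimulated cells and 398 ± 48.9 with LPS. TPM is relative to the library total, and with total-count scaling LPS moved the median gene to -1.02 on the log2 scale. The sums are therefore given as the base of the shares and do not order the groups by amount. With (+)-JQ1 alone the sum was 457 ± 27.0 TPM, 98.7% ± 0.274 of it Cxcr4. With LPS + (+)-JQ1 it was 125 ± 13.7 TPM, of which Ccrl2 gave 97.4% ± 0.106.

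**Figure D1:**
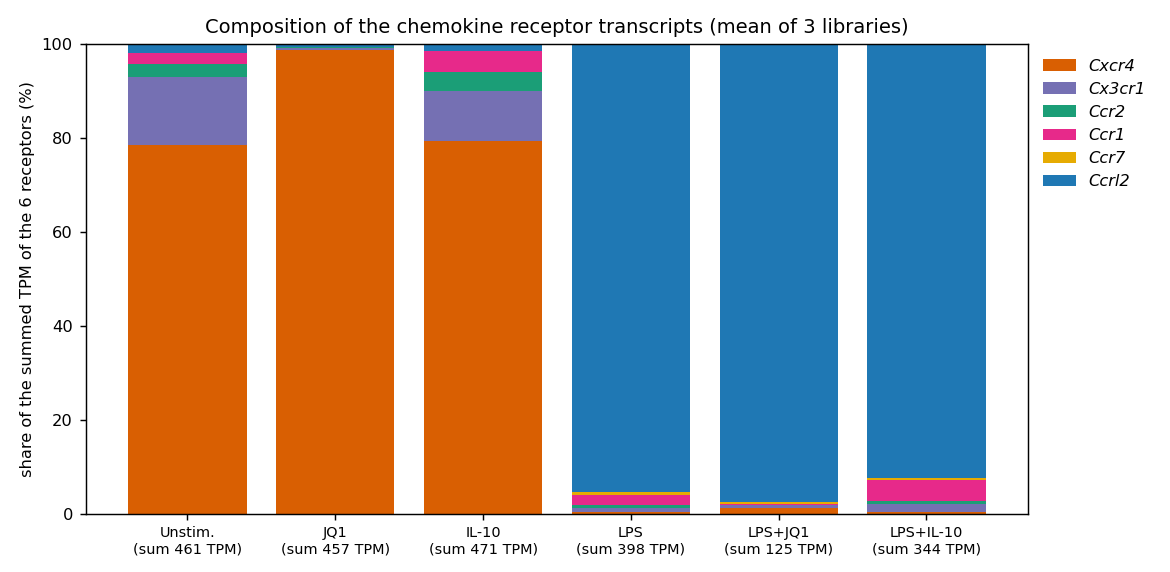
Stacked bars show the share of each of the 6 chemokine receptor genes in their summed TPM, in percent, as the mean of 3 libraries per group, with the summed TPM under each bar. Cxcr4 fills 78.4% of the unstimulated bar and 98.7% of the (+)-JQ1 bar, and Ccrl2 fills 95.5% of the LPS bar and 97.4% of the LPS + (+)-JQ1 bar.

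LPS against unstimulated cells addresses how the macrophage response to a bacterial signal changes the receptors. All 6 receptors passed the test, 3 higher and 3 lower, in a comparison where 64.5% of all genes tested were called, 31.6% higher and 32.9% lower. Ccrl2 and Ccr7 rose, Cxcr4, Cx3cr1 and Ccr2 fell, and Ccr1 was higher by a small margin that did not hold in other fits. The median log2 fold change over the 6 receptors was -0.55, and that over all genes tested was -0.07. Tests were the DESeq2 Wald test over all 18 libraries with Benjamini-Hochberg adjustment over all genes. In bulk RNA, fewer cells that carry a transcript and less of it per cell cannot be told apart.

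Cxcr4, on the minus strand of chromosome 1 (mm9, chr1:130484776-130488870, a gene of 2 exons), binds Cxcl12 and holds leukocytes in the bone marrow. Its normalised counts were 3893, 4727 and 4255 in unstimulated replicates 1, 2 and 3, and 19.8, 26.9 and 17.2 with LPS. Every LPS library lay more than 100-fold below every unstimulated library. The log2 fold change was -7.63 ± 0.22 (SE, adjusted p = 1.05e-261), a 198-fold lower level. Replicate 2 changed sequencing lane with LPS, but within mouse 1 and mouse 3, whose libraries of both groups shared a lane, the LPS level was 0.00509 and 0.00404 of the unstimulated one.

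Cx3cr1, on chromosome 9 (chr9:119957811-119977400, minus strand), is the receptor for Cx3cl1 and a common marker of monocytes and tissue macrophages. Its normalised counts fell from 1990, 1646 and 1623 to 163, 164 and 171 with LPS. The LPS libraries were nearly equal, and all of them lay far under the unstimulated ones. The log2 fold change was -3.40 ± 0.21 (adjusted p = 4.09e-59), a 10.6-fold lower level. Ccr2 (chr9:124016689-124028296, plus strand), through which monocytes leave the bone marrow towards Ccl2, went from 329, 291 and 268 to 79.2, 76.5 and 136. Its groups did not overlap, and the log2 fold change was -1.61 ± 0.23 (adjusted p = 3.52e-12).

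Ccrl2 (chr9:110957339-110959774, minus strand) showed the opposite course. It had 105, 115 and 117 normalised counts in unstimulated replicates and 7768, 8093 and 8414 with LPS. The groups were far apart and the replicates of each were close. This was a log2 fold change of 6.17 ± 0.11, a 72.2-fold higher level with an adjusted p too small to be represented. Ccr7 (chr11:99005510-99016391, minus strand), which directs dendritic cells and activated leukocytes to lymph nodes, rose from 10.0, 3.38 and 4.69 to 46.7, 49.6 and 52.8. The log2 fold change was 2.95 ± 0.46 (adjusted p = 4.42e-10), but the counts behind it were few, 2 to 13 per unstimulated library and 33 to 48 per LPS library. Markers of dendritic cells, a cell type that carries Ccr7, moved with it: the summed normalised counts of 6 such markers were 5.07 to 26.8 in unstimulated cells and 90.0 to 113 with LPS, most of the latter from Xcr1, itself a chemokine receptor. Of these 6 markers 2 were called higher, a share near the 31.6% of all genes. They were Xcr1 with means of 4.18 and 64.3 and Zbtb46 with 3.85 and 23.0. Clec9a (2.85 and 7.23), Flt3 (2.49 and 4.24), Itgae (3.71 and 4.34) and Dpp4 (1.01 and 1.29) did not pass. The part of these markers in the Ccr7 result was not tested.

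Ccr1 (chr9:123876959-123883525, minus strand), a receptor for Ccl3 and related chemokines, had 284, 145 and 183 normalised counts in unstimulated replicates and 250, 258 and 365 with LPS. The groups overlapped, and mouse 1 moved against the other two. The log2 fold change was 0.50 ± 0.23 with an adjusted p of 0.0497. The call was lost with the replicate number as a block (adjusted p = 0.0593) and with the lane as a covariate (adjusted p = 0.0903). Without unstimulated replicate 2, unstimulated replicate 3 or LPS replicate 3 the adjusted p was 0.231, 0.169 and 0.273. With total-count scaling the log2 fold change was -0.43, which is 0.59 above the shifted median of all genes under that scaling. No direction is drawn for Ccr1.

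The bases before the transcription start of the receptors with the largest rise and the largest fall are printed here as a description of their letters. They come from RefSeq promoter entries, which were found for 5 of the 6 receptors, and were placed on mm9. No entry was found for Ccr7. Capitals mark matches to motif letters searched on both strands. For Cxcr4 the window is chr1:130488877-130489126 on the minus strand, 250 bases up to the start, and the capitals hold 2 overlapping matches to TATAAA, 1 on each strand, the letters of a TATA box. For Ccrl2 it is chr9:110960023-110960272 on the minus strand, before the most distant of 3 starts, and the capitals hold GGACTTTCC, the letters of a binding site of the transcription factor NF-kappaB.
Cxcr4: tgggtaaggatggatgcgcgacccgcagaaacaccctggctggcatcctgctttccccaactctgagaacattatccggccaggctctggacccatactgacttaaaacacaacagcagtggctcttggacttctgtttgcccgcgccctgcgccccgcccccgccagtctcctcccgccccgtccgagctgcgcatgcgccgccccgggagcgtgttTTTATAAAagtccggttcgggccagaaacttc
Ccrl2: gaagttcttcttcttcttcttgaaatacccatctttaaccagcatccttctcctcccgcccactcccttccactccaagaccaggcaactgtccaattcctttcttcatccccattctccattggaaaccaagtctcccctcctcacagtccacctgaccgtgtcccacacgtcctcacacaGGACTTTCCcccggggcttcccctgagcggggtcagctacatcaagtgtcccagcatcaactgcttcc
TATAAA was held by 12.4% of 32851 mouse promoter windows of the same length and GGACTTTCC by 0.283%. The letters GGACTTTCC were chosen after the Ccrl2 window had been read, so their match was fixed by that choice and its share carries no weight. The windows before the other Ccrl2 starts do not hold them. The other motifs searched were TGANTCA (held by 6.75% of windows), TGACGT (6.47%), the interferon-stimulated response element (2.98%), TTCNNNGAA (7.02%) and GAGGAAGT (2.44%). Of these, only TGACGT matched a receptor window, in the windows before the other two Ccrl2 starts. No motif searched matched the windows of Ccr1, Ccr2 and Cx3cr1, which says only that these letters are not in them, and a match is a description of letters and not of a bound site.

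**Figure D2:**
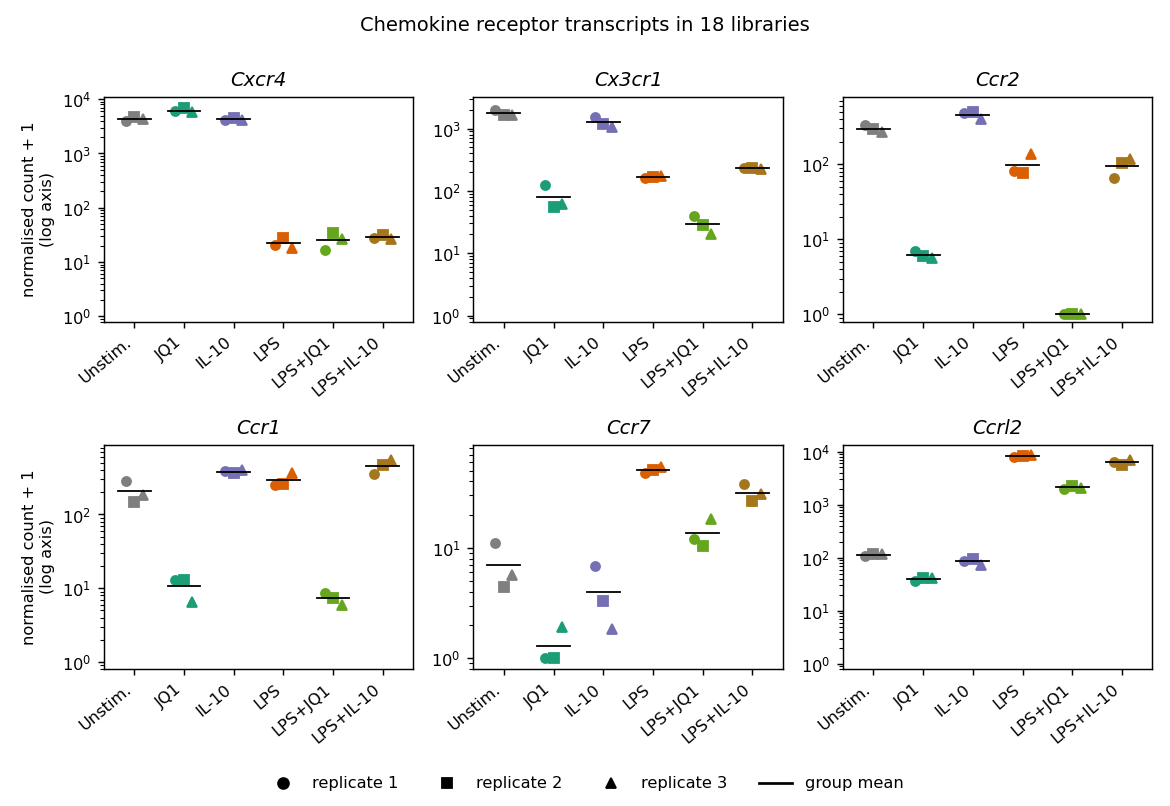
Each point is 1 library, with the normalised count + 1 on a log axis for the 6 receptor genes in the 6 groups; marker shapes give the replicate number and the line the group mean. Cxcr4 drops from means of 4259 and above without LPS to 27.6 and below with LPS, Ccrl2 rises to means of 2113 and above, and Ccr1, Ccr2 and Cx3cr1 are low in both groups with (+)-JQ1.

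(+)-JQ1 against unstimulated cells asks what BET inhibition did to the receptors before any LPS. All 6 receptors passed the test, 5 lower and 1 higher, where 45.7% of all genes tested were called, 21.9% higher and 23.7% lower. Total-count scaling turned this split from 3001 higher and 3247 lower genes to 1670 and 4568 and moved the median gene to -0.18. Ccr2, Cx3cr1, Ccr1, Ccr7 and Ccrl2 fell and Cxcr4 rose. The median log2 fold change was -4.34 over the receptors and -0.0006 over all genes tested.

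Ccr2 was left with 6.05, 4.93 and 4.58 normalised counts after (+)-JQ1, from 7, 5 and 5 expected counts per library. Against the unstimulated 329, 291 and 268 this was a log2 fold change of -5.83 ± 0.41 (adjusted p = 8.31e-45), a 56.8-fold lower level, and the ratio within each mouse was 0.0184, 0.0169 and 0.0171. The 3 mice thus gave nearly the same ratio. Cx3cr1 fell to 121, 54.2 and 61.4, a log2 fold change of -4.47 ± 0.22 (adjusted p = 2.59e-93). Ccr1 fell to 12.1, 11.8 and 5.495, a log2 fold change of -4.39 ± 0.34 (adjusted p = 2.47e-36). None of these groups overlapped with unstimulated cells, and all 3 receptors were lower by 21.0-fold or more.

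Ccrl2 was reduced less. Its normalised counts of 35.5, 41.4 and 41.2 lay under every unstimulated library, with a log2 fold change of -1.51 ± 0.17 (adjusted p = 7.64e-18). Ccr7 had 0, 0 and 1 counts with (+)-JQ1 and 13, 2 and 7 in unstimulated cells, a ratio of 21.2 with a 95% counting interval of 3.43 to 877 (exact binomial, counting error only). DESeq2 gave an adjusted p of 0.00213, and without replicate 1 it was 0.122. Cxcr4 was the exception in direction: 5951, 6817 and 5719 normalised counts all lay above the unstimulated range of 3893 to 4727. Its log2 fold change was 0.52 ± 0.10 (adjusted p = 7.55e-07, higher in 3 of 3 mice), and with limma on log2(TPM + 1) it was 0.32 with an adjusted p of 0.0616.

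Markers of monocytes moved with Ccr2 and Ccr1. The summed normalised counts of 4 monocyte markers were 578 to 970 in unstimulated cells and 27.6 to 51.9 with (+)-JQ1. Nearly all of the sum was F13a1, with means of 816 and 39.3, whereas Ly6c2, a defining marker of inflammatory monocytes, was at a mean of 2.57 and at 0. Of the 8 macrophage markers 4 were called lower and 3 higher, where 23.7% and 21.9% of all genes were. Itgam (means of 10137 and 3261), Fcgr1 (2061 and 211), Adgre1 (15260 and 12634) and Csf1r (43602 and 37043) were lower, Mertk (1701 and 3291), Cd14 (6314 and 9898) and Lyz2 (116182 and 179089) were higher, and Cd68 did not pass. The summed counts of 8 neutrophil markers were 84.6 to 266 in unstimulated cells and 22.7 to 68.7 with (+)-JQ1. Of the 5 tested, Ltf, S100a8 and S100a9 were called lower, where 23.7% of all genes were. The part of these cells or genes in the receptor results was not tested.

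LPS + (+)-JQ1 against LPS asks the same of stimulated cells. Of the 6 receptors, 5 were called lower, where 57.3% of all genes tested were called, 24.4% higher and 32.9% lower. Ccr2 and Ccr1 were nearly lost, Cx3cr1, Ccr7 and Ccrl2 were reduced to a part of their LPS level, and Cxcr4, already low after LPS, did not pass the test. The median log2 fold change was -2.26 over the receptors, also with Ccr2 at its bound, and -0.11 over all genes tested.

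Ccr2 had a count of 0 in all 3 LPS + (+)-JQ1 libraries, against 79.2, 76.5 and 136 normalised counts with LPS. At a floor of 3 counts per library, or 3.39 normalised counts on average, it was at least 28.7-fold lower (adjusted p = 7.04e-13). Ccr1 had 7.73, 6.32 and 4.92 normalised counts against 250, 258 and 365, a log2 fold change of -5.51 ± 0.42 (adjusted p = 6.94e-39) and a 45.7-fold lower level. No LPS + (+)-JQ1 library came near an LPS library for either gene. The summed counts of the 4 monocyte markers were 25.3 to 60.3 in these libraries and 516 to 900 with LPS, and their part was again not tested.

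Cx3cr1 had 38.7, 27.4 and 19.7 normalised counts with LPS + (+)-JQ1. The log2 fold change was -2.53 ± 0.26 (adjusted p = 1.03e-20). Ccrl2 kept 1997, 2253 and 2090 normalised counts, so it was 3.83-fold lower than with LPS (log2 fold change -1.94 ± 0.08, adjusted p = 1.36e-114). It was still far above all unstimulated libraries, as the mean of 2113 against 112 shows (adjusted p = 9.44e-305). Ccr7 had 11.0, 9.48 and 17.2 normalised counts, a log2 fold change of -1.997 ± 0.418 (adjusted p = 5.68e-06), and it did not differ past the threshold from unstimulated cells (adjusted p = 0.0908). The summed counts of the 6 dendritic cell markers were 28.3 to 39.8 against 90.0 to 113 with LPS. The fall was nearly all in Xcr1, with means of 64.3 and 4.01, and Clec9a was the other marker called lower, whereas Zbtb46 (23.0 and 20.6) and Flt3 (4.24 and 5.26) did not pass. Their part was not tested. Cxcr4 had 15.5, 33.7 and 25.9 against 19.8, 26.9 and 17.2. Its log2 fold change was 0.21 with a 95% interval of -0.34 to 0.77 (adjusted p = 0.546), and the groups overlapped.

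**Figure D3:**
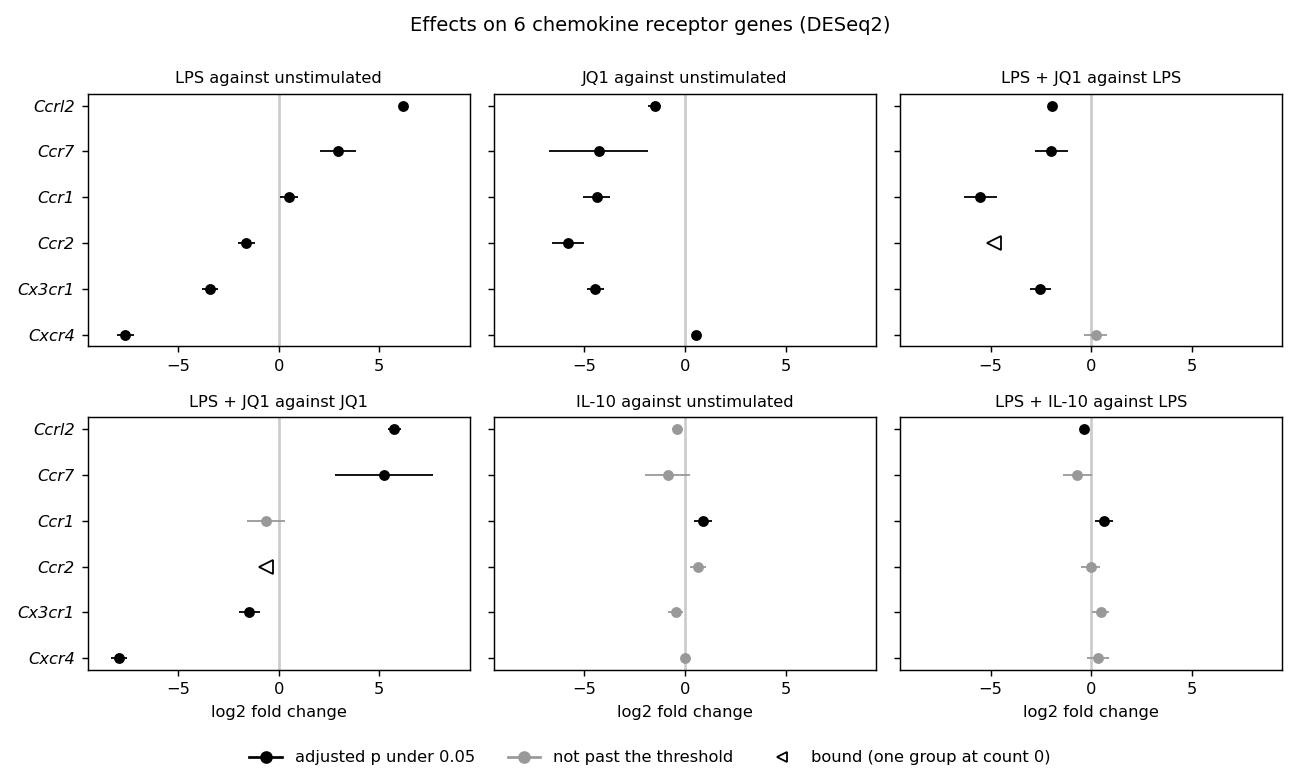
Points are DESeq2 log2 fold changes of the 6 receptors in 6 comparisons and bars are 95% intervals ; black points passed an adjusted p of 0.05, grey points did not, and open triangles are bounds where 1 group had a count of 0 in every library. The LPS panel spans -7.63 for Cxcr4 to 6.17 for Ccrl2, the (+)-JQ1 panels lie mostly left of 0, and the points of the IL-10 panels lie within 1 log2 unit of 0.

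LPS + (+)-JQ1 against (+)-JQ1 gives the response to LPS under BET inhibition. Of the 6 receptors, 5 were called, 2 higher and 3 lower, where 58.6% of all genes tested were called, 27.6% higher and 31% lower. With total-count scaling the 3783 higher and 4242 lower genes became 2274 and 6599, and the median gene lay at -0.46. Ccrl2 rose 53.8-fold, from 35.5, 41.4 and 41.2 to 1997, 2253 and 2090 normalised counts (log2 fold change 5.75 ± 0.15). Cxcr4 fell 245.5-fold, with a log2 fold change of -7.94 ± 0.20. Both adjusted p-values were too small to be represented. Cx3cr1 was lower by 1.46 ± 0.27 on the log2 scale (adjusted p = 2.07e-07). Ccr7 had 33 counts in the 3 libraries with LPS + (+)-JQ1 and 1 with (+)-JQ1, a ratio of 40.4 with a 95% counting interval of 6.76 to 1642 (adjusted p = 6.70e-05). Ccr2 was at least 1.53-fold lower (adjusted p = 4.52e-04), and Ccr1 had a log2 fold change of -0.62 with a 95% interval of -1.57 to 0.33 (adjusted p = 0.273).

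The interaction of LPS with (+)-JQ1 tests whether the effect of (+)-JQ1 differed with and without LPS. It passed for 2 of the 6 receptors, 1 in each direction, where 41.5% of all genes tested were called, 17.7% higher and 23.8% lower. For Cx3cr1 it was 1.94 ± 0.34 on the log2 scale (adjusted p = 1.11e-07), so (+)-JQ1 lowered Cx3cr1 less in stimulated cells (-2.53) than in unstimulated ones (-4.47). Equally, the log2 fold change with LPS was -3.40 without (+)-JQ1 and -1.46 with it. For Ccr2 the interaction was -3.05 ± 1.27 (adjusted p = 0.0405), but it rests on the group in which every library had a count of 0. It was not past the threshold with the edgeR quasi-likelihood test (adjusted p = 0.103) and was 1.75 on the log2(TPM + 1) scale, so no direction is drawn. It was also lost without unstimulated replicate 3, (+)-JQ1 replicate 1, LPS replicate 3 or any LPS + (+)-JQ1 library (adjusted p from 0.0511 to 0.105). Ccrl2 had an interaction of -0.42 (95% interval -0.79 to -0.05, adjusted p = 0.0597), Cxcr4 of -0.31 (-0.89 to 0.28, adjusted p = 0.432) and Ccr1 of -1.12 (-2.17 to -0.07, adjusted p = 0.0817). Ccrl2 passed with an offset for effective length over all libraries (-0.51, adjusted p = 0.0215) and without LPS + (+)-JQ1 replicate 2 (0.0362). Ccr1 passed without unstimulated replicate 1 (adjusted p = 0.0176) or (+)-JQ1 replicate 3 (0.0325).

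IL-10 against unstimulated cells returns to the BMDMs the cytokine that they lack. Of the 6 receptors, 1 was called, higher, where 2.81% of all genes tested were called, 1.8% higher and 1.01% lower. This was Ccr1, which went from 284, 145 and 183 to 388, 360 and 394 normalised counts. All IL-10 libraries lay above all unstimulated ones, with a log2 fold change of 0.89 ± 0.23 (adjusted p = 0.00673). The call was lost without unstimulated replicate 2 (adjusted p = 0.0771), without unstimulated replicate 3 (0.0709) and without IL-10 replicate 1 (0.0627), with the log2 fold change between 0.71 and 0.87. It was also lost with replicate 2 (0.2485) or replicate 3 (0.0771) left out of all groups. The limma fits on log2(TPM + 1) and log2(TPM + 0.1) gave 0.0548 and 0.154. Ccr2 was at 485, 490 and 400 against 329, 291 and 268, a log2 fold change of 0.63 with an adjusted p of 0.0747, and of 0.0499 without replicate 3. Ccrl2 was at 84.8, 95.3 and 72.3 against 105, 115 and 117, a log2 fold change of -0.41 with an adjusted p of 0.0641, and of 0.0392 without IL-10 replicate 2. The groups of neither gene overlapped. Cx3cr1 was at 1552, 1200 and 1058 against 1990, 1646 and 1623. Its log2 fold change of -0.46 had an adjusted p of 0.294, of 0.0294 with the mouse as a block and of 0.00539 without replicate 1. For Cxcr4 the difference was -0.01 with a 95% interval of -0.20 to 0.18. The summed counts of the 4 monocyte markers were 1212.5 to 2180 with IL-10 against 578 to 970 without. Of the 3 markers tested only F13a1 was called, higher by 1.12 ± 0.34 on the log2 scale (adjusted p = 0.0392). The part of these markers in the Ccr1 and Ccr2 values was not tested.

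LPS + IL-10 against LPS gives the effect of IL-10 in stimulated cells. Of the 6 receptors, 2 were called, 1 higher and 1 lower, where 17.2% of all genes tested were called, 8.38% higher and 8.81% lower. With total-count scaling the 959 higher and 1009 lower genes became 1511 and 615. Ccrl2 was lower in 3 of 3 mice, with 6369, 5623 and 6786 normalised counts against 7768, 8093 and 8414. The groups did not overlap, but the difference was small, -0.37 ± 0.08 on the log2 scale (adjusted p = 1.30e-04), or 1.29-fold. It was 0.0546 without replicate 2 and 0.155 with limma on log2(TPM + 1). Ccr1 was at 353, 465 and 552 against 250, 258 and 365, a log2 fold change of 0.65 ± 0.23 (adjusted p = 0.0278). Without any 1 of LPS replicates 1 and 2 and LPS + IL-10 replicates 2 and 3 its adjusted p lay between 0.0995 and 0.155. With replicate 2 or replicate 3 left out of all groups it was 0.309 and 0.0583. The limma fits on log2(TPM + 1) and log2(TPM + 0.1) gave 0.0551 and 0.105. The summed counts of the 4 monocyte markers were 1061 to 1690 with LPS + IL-10 against 516 to 900 with LPS. Of these markers 2 were tested and 0 were called, and their part was not tested. Cx3cr1 was higher in 3 of 3 mice, with 234, 228 and 224 against 163, 164 and 171, a log2 fold change of 0.46 (adjusted p = 0.140, and 0.0427 with the mouse as a block). For Ccr2 the difference was -0.03 with a 95% interval of -0.50 to 0.44, and for Ccr7 it was -0.69 with an interval of -1.43 to 0.04.

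The response to LPS after IL-10 called 5 of the 6 receptors, where 67% of all genes tested were called, 33.2% higher and 33.8% lower. With total-count scaling the 4757 higher and 4840 lower genes became 2281 and 8590, and the median gene lay at -0.89. Ccrl2 was higher by 6.21 and Ccr7 by 3.12 on the log2 scale, and Cxcr4 (-7.29), Cx3cr1 (-2.48) and Ccr2 (-2.27) were lower. Ccr1 had a log2 fold change of 0.26 (adjusted p = 0.297). The interaction of LPS with IL-10 passed for 1 receptor, Cx3cr1, where 7.44% of all genes tested were called, 4% higher and 3.44% lower. With total-count scaling the 432 higher and 372 lower genes became 690 and 248. Its value was 0.93 ± 0.29 (adjusted p = 0.0240): IL-10 gave -0.46 without LPS and 0.46 with it, although neither of these passed the test alone. The adjusted p lay between 0.0504 and 0.0927 without unstimulated replicate 1, without IL-10 replicate 2 or 3, without LPS replicate 1 or 2, or without LPS + IL-10 replicate 1 or 2. Leaving out replicate 2 or replicate 3 in all groups gave 0.232 and 0.372. The limma fits on log2(TPM + 1) and log2(TPM + 0.1) gave 0.0820 and 0.168.

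Set side by side in stimulated cells, (+)-JQ1 and IL-10 differed at 5 of the 6 receptors, all lower with (+)-JQ1, where 55.3% of all genes tested were called, 23.8% higher and 31.6% lower. With total-count scaling the 3404 higher and 4523 lower genes became 4961 and 3139, and the median gene lay at 0.16. Ccr1 after LPS was 71.9-fold lower in the (+)-JQ1 group than in the IL-10 group (log2 fold change -6.17 ± 0.41, adjusted p = 1.14e-48). Ccr2 was at least 27.85-fold lower, Cx3cr1 7.95-fold and Ccrl2 2.96-fold. Ccr7 was lower by 1.30 ± 0.43 on the log2 scale (adjusted p = 0.00556), which was lost without replicate 1 or without replicate 2. Cxcr4 was the receptor that did not pass, with a difference of -0.12 and a 95% interval of -0.64 to 0.41.

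The order of the groups differed between the receptors. Of 30 pairs of neighbouring groups in these orders, 16 differed past the threshold. Ccrl2 had the most distinct order, from 8092 ± 323 normalised counts with LPS through 6259 ± 589 with LPS + IL-10, 2113 ± 130 with LPS + (+)-JQ1, 112 ± 6.59 in unstimulated cells and 84.1 ± 11.5 with IL-10 to 39.4 ± 3.38 with (+)-JQ1. Only the unstimulated and IL-10 neighbours did not pass (adjusted p = 0.0641). Cxcr4 fell into 2 blocks: (+)-JQ1 at 6162 ± 578, unstimulated at 4292 ± 419 and IL-10 at 4259 ± 214, and then the LPS groups at 27.6 ± 2.62, 25.0 ± 9.15 and 21.3 ± 5.02, within which no neighbours passed. Cx3cr1 ran from 1753 ± 206 in unstimulated cells and 1270 ± 254 with IL-10 through 229 ± 5.28 with LPS + IL-10, 166 ± 4.23 with LPS and 78.9 ± 36.7 with (+)-JQ1 to 28.6 ± 9.54 with LPS + (+)-JQ1. For Ccr1, both (+)-JQ1 groups lay at the bottom at 9.81 ± 3.74 and 6.32 ± 1.40 and did not differ past the threshold from each other.

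Of the 6 receptors, 4 lie on chromosome 9, and Ccr3 lies between Ccr1 and Ccr2. Ccr3, best known as the eotaxin receptor, is not among the 6 but was also low with (+)-JQ1. It had 389 counts in unstimulated and 5 in (+)-JQ1 libraries, a ratio of 75.1 (95% counting interval 31.9 to 233, adjusted p = 4.25e-17). With LPS and LPS + (+)-JQ1 it had 544 and 8 counts, a ratio of 72.9 (36.7 to 170). Ccr1, Ccr3 and Ccr2 were thus each called lower with (+)-JQ1 both without and with LPS. Over the list of 18 other chemokine receptors, 4 of the 11 tested were called lower with (+)-JQ1, where 23.7% of all genes were, and 8 of 12 with LPS + (+)-JQ1 against LPS, where 32.9% were. Among them was Cmklr1, the signalling receptor for chemerin, the ligand that Ccrl2 binds, with log2 fold changes of -2.55 ± 0.17 and -5.64 ± 0.26. With LPS alone, 6 of 12 were called higher and 1 lower, against 31.6% and 32.9% of all genes, with Xcr1 at 3.78 and Ccr9 at 2.90 on the log2 scale as the largest.

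Ccr2 counts carry an uncertainty that the other receptors do not. Of its 5312 annotated transcript windows of 50 bases, the read length, 110 (2.07%) also occur in transcripts of another gene, whereas no such window was found for the other 5 receptors, and expected counts divide the reads that match more than 1 gene. None of the 6 receptor genes overlaps another annotated gene on either strand.

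The ligands of the receptors were read from a list of 17 genes. With LPS, 9 of the 11 tested were called higher, where 31.6% of all genes were, and the median log2 fold change over them was 6.52 against -0.07 over all genes. Ccl7, a ligand of Ccr2, rose by 10.48 ± 0.43 on the log2 scale, and the inflammatory chemokines Ccl3 and Ccl4 by 9.09 ± 0.14 and 8.79 ± 0.17. Ccl12, another Ccr2 ligand, had a mean of 1.85 normalised counts in unstimulated cells and 1719 with LPS. With LPS + (+)-JQ1 against LPS, 9 of 11 were called lower, where 32.9% of all genes were, with Ccl12 at -5.44 ± 0.23, Ccl8 at -2.17 ± 0.42, Cx3cl1 at -1.98 ± 0.39 and Ccl3 at -1.69 ± 0.13. Ccl2 and Ccl7, both ligands of Ccr2, did not pass there. Their means were 9721 against 10380 normalised counts for Ccl2 (log2 fold change -0.09, 95% interval -0.74 to 0.55) and 6790 against 6349 normalised counts for Ccl7 (log2 fold change 0.10, 95% interval -0.32 to 0.51), in the same libraries in which Ccr2 had a count of 0. With LPS + IL-10 against LPS, 6 of 11 were called lower, where 8.81% of all genes were, including Cx3cl1 (-2.19 ± 0.39), Ccl2 (-2.04 ± 0.33), Ccl7 (-1.71 ± 0.21) and Ccl3 (-0.92 ± 0.13). Without LPS, 2 of 11 were called lower with (+)-JQ1, Ccl6 and Ccl9, a share near the 23.7% of all genes. Ccl5 had no adjusted p in these fits and is not described.

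Genes whose pattern was most like each receptor were named by Pearson's r on variance-stabilised counts over the 18 libraries, among the 8378 genes whose mean reached 100 normalised counts. These are descriptions, and the libraries share their groups, so any gene with a large response to LPS or (+)-JQ1 can score high. Ccrl2 was closest to Bcl2a1d (r = 0.998), Dtx3l (0.996) and Tnfaip3 (0.996). Cxcr4 was closest to Slc26a11 (0.996), Abcd2 (0.996) and Hmha1 (0.996), all of which were low in every LPS group. Ccr1 was closest to Cysltr1 (0.993), Cd302 (0.991) and Ctss (0.989), and Ccr2 to Atic (0.985), Pld4 (0.983) and Arhgap4 (0.982). Cx3cr1 was closest to Nlrp1b (0.983), Emilin1 (0.974) and Txndc15 (0.971), and Ccr7 to Arl5c (0.977), Pkmyt1 (0.976) and Gpc1 (0.975). Cysltr1, a leukotriene receptor, had means of 167 in unstimulated cells, 17.99 with (+)-JQ1, 276 with IL-10, 203 with LPS, 397 with LPS + IL-10 and 14.6 with LPS + (+)-JQ1, which is the order of Ccr1.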

How the data were processed

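RNA-seq of 18 libraries of Il10-/- BMDMs, 3 per group, was analysed from the gene tables that the authors deposited. Per the study's methods, libraries were stranded and depleted of ribosomal RNA, paired reads were aligned by STAR against mm9, and RSEM 1.2.31 gave the gene values. The deposited expected counts are RSEM's estimated reads per gene, in which a read that fits several genes is divided among them. Between 5.40% and 6.63% of a library's genes had a fractional value, and all values were rounded for the tests. TPM, as deposited by the authors, is scaled for gene length, the deposited effective lengths served in a length offset, and the authors' FPKM values were not used. Totals of 6781952 to 28289498 expected counts set the depth, and intervals and floors cover counting error only, since the reads carry no molecular identifiers.

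Groups and replicate numbers came from the titles. The Wald test of DESeq2 1.42.0 (R 4.3.3), the test named in the study's methods, was fitted to the 18 libraries together with a term for group alone, and a gene was called at a Benjamini-Hochberg adjusted p, over all genes, under 0.05. Interactions were taken from the same fit. Alternatives were a replicate block, TMM factors, total-count scaling, the quasi-likelihood test of edgeR 4.0.16, limma 3.58.1 on log2(TPM + 1) and log2(TPM + 0.1), a minimum of 10 counts in 3 libraries, a lane term, the length offset, only the groups compared, and leaving out libraries. The fits were tested on simulated data.

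Per the labels the groups are biologically matched cultures of 3 mice, so equal numbers were taken to pair the libraries. Their deviations from the group means correlated weakly for equal numbers (mean 0.091, above 0.1 in 24 of 45 pairs). For single pairs of groups this mean ran from -0.065 for LPS + (+)-JQ1 and LPS + IL-10 to 0.4 for LPS and LPS + IL-10. It was -0.055 for LPS and LPS + (+)-JQ1. The mean of -0.045 for unequal numbers largely follows from subtracting the group means and is no separate evidence of pairing. Lane 7 held replicate 1 and lane 8 replicate 3, and replicate 2 was split, its libraries without LPS on lane 7 and those with LPS on lane 8.

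The 6 receptors and the gene lists were chosen with earlier results of these data known. The genes named are the receptors, at most 4 genes per list and comparison with the largest log2 fold change past the threshold and a mean of at least 10 normalised counts, the 3 genes most like each receptor, Il10 and the cell type markers. Ccr3, Ccl2, Itgam, Fcgr1 and F13a1 were also singled out after their values were seen. Positions came from GENCODE vM1 on mm9 and promoter sequences from RefSeq. A ratio was given with an exact counting interval where a group had at most 3 counts in every library.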

Additional observations from a re-analysis of the deposited data

Results flagged for a closer look

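Whether the effect of a treatment differed between unstimulated and LPS-stimulated cells was read from the interaction test of DESeq2. It passed the threshold in 3 cases in the main fit. For Cx3cr1 the interaction of LPS with (+)-JQ1 was 1.938 on the log2 scale (adjusted p = 1.11e-07), with (+)-JQ1 effects of -4.47 without and -2.53 with LPS, and it passed the threshold in all settings tried. For Cx3cr1 the interaction of LPS with IL-10 was 0.926 (adjusted p = 0.0240), with IL-10 effects of -0.46 without and 0.46 with LPS. This call was lost in both limma fits, without replicate 2 (adjusted p = 0.232) or replicate 3 (0.372), and without several single libraries. The 3 LPS libraries of Cx3cr1 lay between 163 and 171 normalised counts and the LPS + IL-10 libraries between 224 and 234. For Ccr2 the interaction of LPS with (+)-JQ1 was -3.045 (adjusted p = 0.0405), a fitted value that rests on a group with a count of 0 in every library and is no bound. It did not pass with TMM factors (adjusted p = 0.0508) or edgeR (0.103). With limma on log2(TPM + 1) it was 1.748 (adjusted p = 3.60e-05), so no direction is drawn.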

How the results depend on the processing

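Under 31 other settings, 28 of the 38 receptor effects called stayed past the threshold in every setting that gave an adjusted p, and 17 of 60 effects changed their call in at least 1 setting. With the replicate block, which pairs libraries of the same mouse, 2 receptors were called for IL-10 against unstimulated cells in place of 1, Ccr1 lost its LPS call (adjusted p = 0.0593) and Cx3cr1 gained one for IL-10 with LPS (0.0427). For IL-10 against unstimulated cells the count was 2 with the count filter and with the length offset, 3 with only the groups compared, 0 in both limma fits, and 0 to 2 when replicates or single libraries were left out. For LPS + IL-10 against LPS it was 0 in both limma fits and 0 to 2 with libraries left out. For the interaction of LPS with (+)-JQ1 it was 1 with TMM factors, total-count scaling, edgeR and limma on log2(TPM + 0.1), and 1 to 3 with libraries left out. With the length offset Ccrl2 gained a call for this interaction (adjusted p = 0.0215). For the interaction of LPS with IL-10 it was 0 in both limma fits and 0 to 1 with libraries left out. The Ccr1 response to LPS reversed to -0.43 with total-count scaling and to -0.212 and -0.231 in the limma fits, and its response after IL-10 to -0.561 with total-count scaling. The Ccr2 interaction with (+)-JQ1 reversed to 1.748 and 0.877 in the limma fits, in which a floor set by the pseudocount stands in for a count of 0. The causes of the other changes were not tested. Total-count scaling moved 24 of 36 group levels by more than 1 SD, and TMM factors moved 2. It also moved the share of higher calls over all genes by more than 10 percentage points in 9 of 10 comparisons. Depth limits Ccr7 and, with (+)-JQ1, Ccr2 and Ccr1, which rest on few counts.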

Other observations

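Genes that act downstream of chemokine receptors were read from a list of 18 signalling genes. With LPS, 14 were called higher and 3 lower, where 31.6% and 32.9% of all genes were. Jak2 rose by 5.30 ± 0.11 on the log2 scale, and the regulatory subunits of phosphoinositide 3-kinase gamma, Pik3r5 and Pik3r6, rose by 2.91 ± 0.11 and 2.35 ± 0.11, while Plcb2, a phospholipase activated by G proteins, fell by 2.09 ± 0.24. With LPS + (+)-JQ1 against LPS, 16 of 18 were called lower, where 32.9% of all genes were. Among them were Plcb2 (-2.96 ± 0.49), the catalytic subunit Pik3cg (-2.68 ± 0.11), Pik3r6 (-1.44 ± 0.11) and the haematopoietic GTPase Rac2 (-1.34 ± 0.08). With LPS + IL-10 against LPS, 5 of 18 were called higher and 1 lower, against 8.38% and 8.81% of all genes, and Rac2 was higher by 0.73 ± 0.08.

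Of 16 genes that switch receptors off, 4 were called higher and 12 lower with LPS, against 31.6% and 32.9% of all genes, with Rgs16 at 4.66 ± 0.25 and the arrestin Arrb1 at -3.25 ± 0.09. With LPS + (+)-JQ1 against LPS, 6 were called higher and 8 lower, against 24.4% and 32.9% of all genes. The regulators of G protein signalling Rgs14 (-4.56 ± 0.18), Rgs1 (-3.92 ± 0.21) and Rgs2 (-3.11 ± 0.13) fell, and the receptor kinase Grk5 rose (2.80 ± 0.12). Rgs1 (-1.87 ± 0.20) and Rgs2 (-1.08 ± 0.11) were also lower with LPS + IL-10 against LPS.

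Among markers of other cells, no library had a count for Ly6g. The summed normalised counts of 8 neutrophil markers were 159 to 212 with LPS and 64.1 to 145 with LPS + (+)-JQ1. Of 5 tested in that comparison, S100a8, S100a9 and Camp were called lower, where 32.9% of all genes were. The sums were 79.1 to 117 with IL-10 and 144 to 265 with LPS + IL-10. In all groups together, the sums of 3 stromal markers ran from 48.4 to 321, those of 3 erythroid markers up to 6.204 and those of 3 mast cell and basophil markers up to 7.24.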
